A study of Mus musculus with 7 samples.

Results

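The genes described here were 10 alcohol and aldehyde dehydrogenases of mouse liver: Adh1, Adh4, Adh5, Aldh1a1, Aldh1a7, Aldh1b1, Aldh2, Aldh3a2, Aldh8a1 and Aldh1l1. They were taken by gene symbol from the 56691 genes of the deposited count table, and all 10 were found in it. The study modelled septic acute liver injury with lipopolysaccharide (LPS), a cell wall component of Gram-negative bacteria. Liver RNA had been sequenced from 4 mice of the Control group and 3 mice of the LPS group, out of 6 mice kept in each group, and mice that also received sulforaphane were not analysed here. All 7 mice were males of C57BL/6J, an inbred wild-type strain, bought at 8 weeks of age and then housed for 2 weeks. The LPS mice received 10 mg/kg LPS into the peritoneum and their livers were taken 24 h later, whereas a vehicle injection of the Control mice was not given in the sources used here. The model therefore covers a single endotoxin dose, a single time point and males of a single strain.

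Alcohol dehydrogenases oxidise alcohols such as ethanol and retinol to aldehydes in the cytosol, and aldehyde dehydrogenases oxidise the aldehydes further to acids, with NAD or NADP taking up the electrons. In hepatocytes, the main site of ethanol clearance, class I alcohol dehydrogenase (Adh1) makes acetaldehyde, which Aldh2 in mitochondria and Aldh1a1 in the cytosol turn into acetate. Other members of the family act on formaldehyde, retinaldehyde, fatty aldehydes of the endoplasmic reticulum, intermediates of tryptophan breakdown and formyl groups carried by folate.

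Total counts were 14991022, 15096573, 15721944 and 18584140 in Control mice 1 to 4 and 20500391, 17095607 and 17821331 in LPS mice 1 to 3. At this depth a floor of 3 counts stood between 0.138 and 0.212 CPM (counts scaled by library size and TMM factors), and such floors cover counting error only. The 10 genes were far above it, with the lowest count, 173 reads, for Aldh1b1 in Control mouse 2. As a check of the group labels, haptoglobin (Hp), an acute phase protein of hepatocytes, had 2669 ± 568 CPM (SD, n = 4) in Control and 27528 ± 4302 CPM (SD, n = 3) in LPS mice. The other checked acute phase genes Saa1, Saa2, Orm1 and Lcn2 rose by 7.99, 9.15, 3.96 and 9.73 in log2 units, and in all 5 the groups were apart.

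Some libraries stood apart from the others of their group. The log2 ratios between LPS mice 2 and 3 had an SD of 0.10 over 1729 abundant genes, whereas this SD was between 0.29 and 0.58 in the other 8 within-group pairs. The variance between these 2 libraries was still 3.80 times the counting noise over 4651 genes with 20 to 200 counts in both libraries together. That is more than repeated sequencing of 1 library would give, but this cannot show that they came from different mice. They were kept as separate mice because the labels give them so, which every p-value here assumes. The main results are also given with both summed into 1 sample. LPS mouse 1 differed from both in several of the genes below. Mitochondrially encoded genes took 23.7%, 14.6%, 7.48% and 8.96% of the counts in Control mice 1 to 4, and 6.45%, 3.83% and 3.94% in LPS mice 1 to 3. Leaving these genes out before scaling changed the call of none of the 10 dehydrogenases.

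Transcripts of this family were lower in LPS mice on balance, but the genes did not move together. At an adjusted p below 0.05 in edgeR's quasi-likelihood test, 5 of the 10 genes were lower in LPS mice (Adh1, Adh4, Aldh1a1, Aldh2 and Aldh3a2), 2 were higher (Aldh1a7 and Aldh1b1) and 3 did not pass (Adh5, Aldh8a1 and Aldh1l1). These counts became 3 lower and 1 higher with LPS mice 2 and 3 summed. Without Control mouse 2 or LPS mouse 1, 2 or 3 there were 3 lower, without Control mouse 3 there were 4, and 1 was higher without LPS mouse 2 or 3. Of the 13683 genes tested, 1773 or 13% were called lower and 1825 or 13.3% were called higher, and 1195 and 1348 with LPS mice 2 and 3 summed. Every LPS mouse was below every Control mouse in 6 of the 10 genes, against 17.4% of all genes tested, and above in 2 of the 10, against 18.1%. The median log2 fold change was -0.41 over the 10 genes and -0.01 over all genes tested. Without scaling factors the median over all genes moved to -0.13, and 2057 genes were called lower and 1350 higher, while the calls of the 10 genes did not change. Summed over the 10 genes, the level was 5496, 6549, 6555 and 6288 CPM in Control mice and 3385, 4249.5 and 4231 CPM in LPS mice. The sum was thus lower in each LPS mouse than in each Control mouse. Because RNA came from whole liver, fewer cells of a type and less RNA per cell cannot be told apart in these values.

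**Figure D1:**
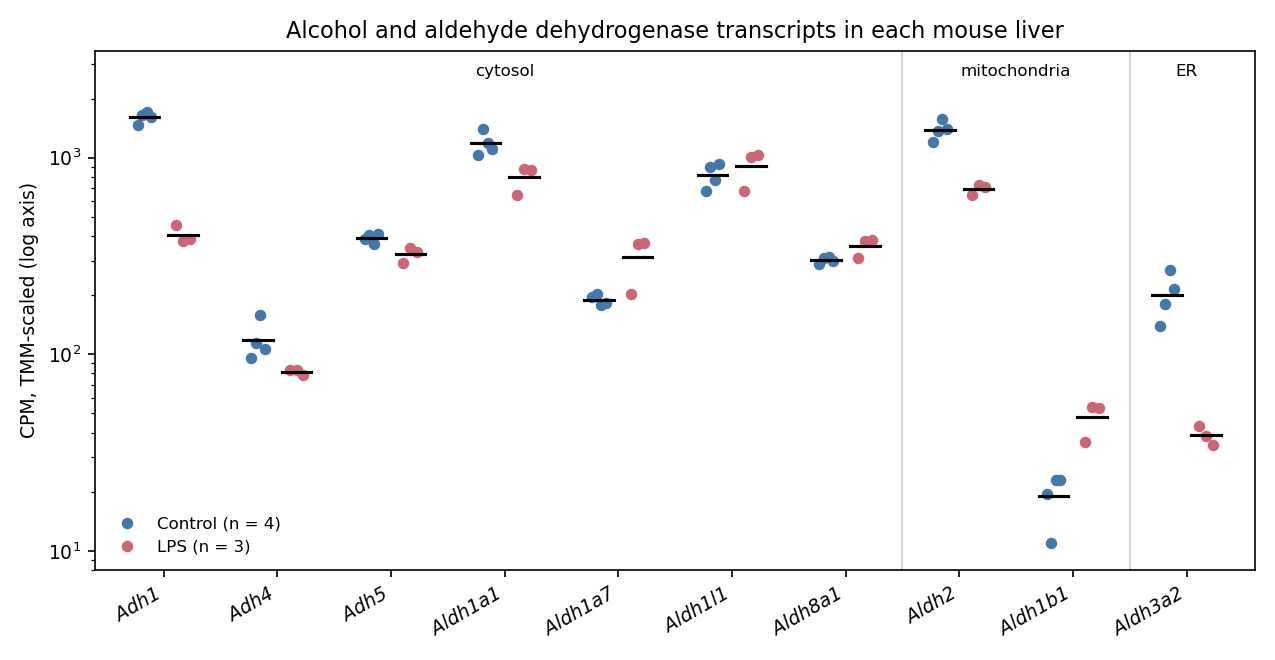
Level of each of the 10 transcripts in CPM on a log axis, with 1 point per mouse (blue, Control, n = 4; red, LPS, n = 3) and a bar at the group mean, grouped by the compartment of the enzyme (ER, endoplasmic reticulum). Adh1, Aldh2 and Aldh3a2 lie lower and Aldh1b1 higher in every LPS mouse, whereas the points of Aldh8a1 and Aldh1l1 overlap between groups.

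Among the alcohol dehydrogenases, LPS mice had much less Adh1 mRNA, less Adh4 mRNA, and an Adh5 level that was lower by an amount that did not pass the test. Adh1 (ENSMUSG00000074207), the class I enzyme that oxidises ethanol and retinol, had 1459, 1657, 1707 and 1614 CPM in Control mice and 457, 377 and 384 CPM in LPS mice. All LPS mice were far below all Control mice, and the spread within each group was small next to the gap. The mean was 1609 ± 107 CPM in Control (SD, n = 4) and 406 ± 44.5 CPM in LPS mice (SD, n = 3), which is 3.96-fold lower, or -1.99 in log2 units (SE 0.16, adjusted p = 1.89e-06, edgeR). With each mouse left out in turn this log2 fold change ranged from -2.08 to -1.93. Of the windows of 50 bases in the Adh1 transcript, 0.277% were shared with the pseudogene Adh6-ps1, and none of those of 100 bases. Adh4 (ENSMUSG00000037797), the class II enzyme, which also takes retinol and longer alcohols, had 96.2, 114, 159 and 107 CPM in Control mice and 83.1, 82.8 and 78.4 CPM in LPS mice. The LPS mice were close to each other and just below the lowest Control mouse, while Control mouse 3 was the highest. The log2 fold change of Adh4 was -0.54 (SE 0.17, adjusted p = 0.0362, edgeR). The call was kept without Control mouse 1 or 4 and lost without any of the other mice: the log2 fold change was -0.58 without Control mouse 2 (adjusted p = 0.0512), -0.38 without Control mouse 3 (adjusted p = 0.0544), and -0.56, -0.55 and -0.52 without LPS mouse 1, 2 or 3 (adjusted p = 0.0760, 0.112 and 0.135, edgeR). With LPS mice 2 and 3 summed it was -0.53 (adjusted p = 0.127, edgeR).

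Adh5 (ENSMUSG00000028138), the class III enzyme that oxidises the glutathione adduct of formaldehyde and reduces S-nitrosoglutathione, had 387, 403, 366 and 407 CPM in Control mice and 289.9, 348 and 331 CPM in LPS mice. The LPS mice were all below the Control mice, though LPS mouse 2 came near Control mouse 3. The log2 fold change was -0.27 (95% confidence interval -0.57 to 0.03, adjusted p = 0.169, edgeR), so a difference was not shown, and the interval holds falls as large as that of Adh4. The balance within the class was compared by the ratio of reads in the same library, which needs no scaling. Per 100 Adh1 reads, there were 26.5, 24.3, 21.4 and 25.2 Adh5 reads in Control mice and 63.4, 92.4 and 86.4 in LPS mice. Adh4 gave 6.60, 6.85, 9.30 and 6.60 reads per 100 Adh1 reads in Control mice and 18.2, 22.0 and 20.4 in LPS mice. Both ratios were thus higher in every LPS mouse than in every Control mouse. In log2 units the difference was 1.71 for Adh5 to Adh1 and 1.47 for Adh4 to Adh1 (two-sided exact permutation test over 35 arrangements, p = 0.0286 for each, the smallest possible, adjusted p = 0.0343 over the 6 ratios tested). With LPS mice 2 and 3 summed the differences were 1.63 and 1.43, each with an adjusted exact p of 0.08, at a sample number that allows no p below 0.05. The same holds when any mouse is left out.

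Acetaldehyde oxidation in mitochondria showed opposite changes in its 2 genes, the abundant Aldh2 and the scarce Aldh1b1. Aldh2 (ENSMUSG00000029455), the main acetaldehyde dehydrogenase, had 1204, 1373, 1578 and 1400.4 CPM in Control mice and 643, 728 and 709 CPM in LPS mice. The groups were well apart, and the 3 LPS mice were close together. Mean Aldh2 was 1389 ± 153 CPM in Control (SD, n = 4) and 693 ± 44.6 CPM in LPS mice (SD, n = 3). It thus fell by 50.1% (95% confidence interval of the log2 fold change -1.35 to -0.66, adjusted p = 4.88e-04, edgeR). Aldh1b1 (ENSMUSG00000035561), a mitochondrial enzyme related to Aldh2 that takes acetaldehyde and other short aldehydes, had 19.4, 10.9, 23.0 and 22.9 CPM in Control mice and 35.7, 54.2 and 53.4 CPM in LPS mice. Control mouse 2 was the lowest and LPS mouse 1 the lowest of its group, yet it was still above all Control mice. Aldh1b1 was 2.50-fold higher, or 1.32 in log2 units (SE 0.24, adjusted p = 0.00130, edgeR). Leaving out any mouse kept the adjusted p of both genes below 0.05. Their transcripts aligned over 1297 bases with 72.2% identity, and none of their windows of 50 bases was shared with another gene, so reads of that length can be told apart. Aldh1b1 gave 1.61, 0.795, 1.46 and 1.63 reads per 100 Aldh2 reads in Control mice and 5.56, 7.44 and 7.53 in LPS mice. The log2 ratio differed by 2.36 (exact permutation p = 0.0286, adjusted p = 0.0343). This exact p follows from the separation of the 2 genes in opposite directions and adds no support to it. Aldh1b1 nevertheless supplied only a small part of the pair in every LPS mouse.

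For the path from ethanol to acetate, the mitochondrial gene fell less than the gene of the step before it. Per 100 Adh1 reads there were 82.5, 82.8, 92.5 and 86.8 Aldh2 reads in Control mice and 141, 193 and 185 in LPS mice. Aldh2 reads were therefore fewer than Adh1 reads in every Control mouse and more in every LPS mouse, with LPS mouse 1 nearest to the Control mice. This order holds for reads only. With CPM divided by transcript length (RPKM), Adh1 stayed above Aldh2 in every LPS mouse, the lowest Adh1 value being 253 and the highest Aldh2 value 188. The log2 ratio differed by 0.99 (exact permutation p = 0.0286, adjusted p = 0.0343). Both differences lost this call with LPS mice 2 and 3 summed, at 2.29 for Aldh1b1 to Aldh2 and 0.92 for Aldh2 to Adh1 (adjusted exact p = 0.08 for each). Between mitochondrial Aldh2 and cytosolic Aldh1a1, reads of Aldh2 per 100 of Aldh1a1 were 117, 97.6, 132 and 126 in Control mice and 99.2, 83.4 and 82.1 in LPS mice. The groups overlapped, since LPS mouse 1 was above Control mouse 2. The log2 ratio differed by -0.42 (exact permutation p = 0.0857, adjusted p = 0.0857), so a shift between the compartments at this step was not shown.

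Of the other genes of ethanol oxidation and acetate use, 4 of 5 were tested. Of these 2 were lower, against 13% of all genes tested, and 2 did not pass. Catalase (Cat), the peroxisomal enzyme that can oxidise ethanol with hydrogen peroxide, changed by -1.23 in log2 units (SE 0.16, adjusted p = 1.15e-04, edgeR). Acss2, which joins acetate to coenzyme A in the cytosol, changed by -1.89 in log2 units (SE 0.22, adjusted p = 4.83e-05, edgeR). Both were lower in all LPS mice than in all Control mice. Cyp2e1, the microsomal ethanol oxidase, had 4747, 7933, 7709 and 6299 CPM in Control mice and 5503, 5731 and 5822 CPM in LPS mice. The LPS mice lay within the wide range of the Control mice, and the log2 fold change was -0.23 (95% confidence interval -0.68 to 0.22, adjusted p = 0.460, edgeR).

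The cytosolic gene of retinaldehyde oxidation, Aldh1a1, and its paralog Aldh1a7 moved in opposite directions. Aldh1a1 (ENSMUSG00000053279), which oxidises retinaldehyde to retinoic acid as well as acetaldehyde and lipid aldehydes, had 1033, 1406, 1192 and 1111 CPM in Control mice and 648, 873 and 863 CPM in LPS mice. LPS mouse 1 was lowest, and the groups did not overlap. The log2 fold change was -0.58 (SE 0.17, adjusted p = 0.0279, edgeR). It was -0.50 without Control mouse 2 (adjusted p = 0.0575), and -0.45, -0.65 and -0.64 without LPS mouse 1, 2 or 3 (adjusted p = 0.0931, 0.0647 and 0.0688, edgeR). With LPS mice 2 and 3 summed it was -0.64 (adjusted p = 0.0712, edgeR). Aldh1a7 (ENSMUSG00000024747), a rodent paralog of Aldh1a1 with little activity on retinaldehyde, had 194.9, 202.3, 178 and 181 CPM in Control mice and 202.9, 363 and 367 CPM in LPS mice. LPS mice 2 and 3 were far above the Control mice, but LPS mouse 1 was level with Control mouse 2, so the groups were barely apart. The log2 fold change was 0.72 (SE 0.19, adjusted p = 0.0156, edgeR). It was 0.59 without LPS mouse 2 (adjusted p = 0.0921), 0.58 without LPS mouse 3 (adjusted p = 0.0956) and 0.60 with both summed into 1 sample (adjusted p = 0.0925, edgeR).

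The pair was also compared by reads within the same library. There were 18.9, 14.4, 14.9 and 16.3 Aldh1a7 reads per 100 Aldh1a1 reads in Control mice and 31.3, 41.6 and 42.5 in LPS mice. LPS mouse 1 lay between the Control mice and the other LPS mice, and no LPS mouse reached down to the Control range. The log2 ratio differed by 1.25 (exact permutation p = 0.0286, adjusted p = 0.0343), and by 1.18 with LPS mice 2 and 3 summed (adjusted exact p = 0.08). This call was also lost with any mouse left out. Aldh1a7 was higher and Aldh1a1 lower in every LPS mouse than in every Control mouse. The exact p of 0.0286 follows from that and adds no support to it. The transcripts of this pair are close copies, with 89.5% identity over 2017 aligned bases, and 6.54% of the windows of 50 bases in Aldh1a1 and 7.49% of those in Aldh1a7 were shared. For windows of 100 bases these shares were 0.044% and 0.051%. How the counting program was set to treat reads that fit both genes was not given in the sources used here, so the split of such reads is uncertain, and the levels of Aldh1a7 are the more exposed because Aldh1a1 is the more abundant.

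The likeness reached into the promoters, which is why they are shown for this pair. The RefSeq promoter table (GRCm38.p6, 250 bases before to 50 bases after each start) held 11 windows for 9 of the 10 genes, with 2 windows each for Aldh1a1 and Adh5. The windows of Adh1, Adh4 and Adh5 lie on chromosome 3 and those of Aldh1a1 and Aldh1a7 on chromosome 19. The 100 bases before the downstream start of Aldh1a1 (chr19:20601868-20601967, plus strand) and before the start of Aldh1a7 (chr19:20727557-20727656, minus strand) matched without gaps at 94 positions and differed at 6, set here in capitals.
Aldh1a1: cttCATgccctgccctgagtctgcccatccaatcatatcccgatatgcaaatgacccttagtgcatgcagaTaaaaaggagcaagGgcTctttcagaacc
Aldh1a7: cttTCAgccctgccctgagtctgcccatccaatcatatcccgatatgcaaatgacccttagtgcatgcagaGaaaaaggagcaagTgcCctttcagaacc
Over the full windows, 7 motifs were searched on both strands. These were TGACNNNGC (antioxidant response element core), TGANTCA (AP-1), TTGCNNAA (C/EBP), GTTAAT (HNF1), CAAAGTCCA (HNF4), TTCNNNGAA (STAT) and GGGNNTTCC (NF-kappa B). They occurred in 12.4%, 7.81%, 10.8%, 7.10%, 0.475%, 8.30% and 5.82% of all 32851 windows of the table. The upstream window of Aldh1a1 held AP-1 and C/EBP letters, and the downstream window held none of the 7 motifs. Aldh1a7 held the HNF1 letters, Aldh1b1 the NF-kappa B letters, Aldh1l1 the C/EBP letters and Aldh8a1 the STAT letters. The windows of Adh1, Adh4, Adh5 and Aldh3a2 held none of them. Such matches describe letters only, and binding of a factor was not measured.

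In the wider retinoid pathway, more genes were lower than higher in LPS mice, whereas over all genes tested 13% were lower and 13.3% higher. Of 33 listed genes for retinoid transport, storage, oxidation, clearance and reception, 28 were tested, 12 were lower, 3 were higher and 13 did not pass, with a median log2 fold change of -0.69 against -0.01 over all genes. The summed level was 12054, 12537, 11664 and 10716 CPM in Control mice and 6023, 5922 and 5938 CPM in LPS mice, with transthyretin (Ttr), a plasma carrier, giving 51.7% of the sum in Control and 43.6% in LPS mice. Without Ttr the sum was 5669 ± 332 CPM (SD, n = 4) in Control and 3365 ± 60.4 CPM (SD, n = 3) in LPS mice. The lowest p-values among the falls were those of the aldehyde oxidase genes Aox3 and Aox1, with log2 fold changes of -3.61 and -2.40, and of Rdh16f2, a retinol dehydrogenase, with -2.15. The genes that rose were Bco1, which cleaves beta-carotene to retinaldehyde, with a log2 fold change of 1.37, and the retinol dehydrogenase genes Rdh13 with 1.13 and Rdh5 with 0.49. Rdh5 barely passed (adjusted p = 0.0495, edgeR), and its adjusted p rose to 0.147 with LPS mice 2 and 3 summed and to 0.0785, 0.0765, 0.125, 0.198 and 0.138 without Control mouse 2, 3 or 4 or LPS mouse 2 or 3. It also lost its call without scaling factors, without mitochondrially encoded genes, with either other filter and with the replicate block (adjusted p = 0.0534 to 0.147), 11 of 16 alternatives in all.

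Aldh8a1 (ENSMUSG00000037542), a cytosolic enzyme that oxidises aminomuconate semialdehyde in the kynurenine route of tryptophan breakdown and can oxidise retinaldehyde, did not pass the test. It had 288, 308, 314 and 297 CPM in Control mice and 308, 379 and 379.9 CPM in LPS mice. LPS mouse 1 lay within the Control range, and LPS mice 2 and 3 were above it. The log2 fold change was 0.24 (95% confidence interval -0.07 to 0.54, adjusted p = 0.240, edgeR). Of 17 genes of the kynurenine route and NAD synthesis, 16 were tested. Of these 4 were lower and 4 were higher, against 13% and 13.3% of all genes tested. Those with the lowest p-values among the rises were Acmsd, whose enzyme makes the substrate of Aldh8a1, which rose by 2.22 in log2 units (SE 0.29, adjusted p = 1.08e-04, edgeR), Tdo2, the hepatic tryptophan dioxygenase, with 1.30, and Kmo, kynurenine monooxygenase, with 1.02. Acmsd stood at 12.5, 6.44, 19.1 and 16.1 CPM in Control mice and at 47.2, 66.7 and 76.3 CPM in LPS mice. Every LPS mouse was thus above every Control mouse in the gene before Aldh8a1 in this route. Haao, Ido2 and Aadat, also of the kynurenine route, were lower, at -0.77, -0.61 and -0.75 in log2 fold change. Ido2 lost its call without LPS mouse 2 (-0.57, adjusted p = 0.0564, edgeR) and Aadat without LPS mouse 1 (-0.63, adjusted p = 0.0551, edgeR). The summed level of the list was 2796 ± 422 CPM (SD, n = 4) in Control and 4739 ± 634 CPM (SD, n = 3) in LPS mice, of which Tdo2 gave 45.2% and 65.5%. Without Tdo2 it was 1532 ± 94.8 CPM and 1635 ± 191 CPM, with overlap between the groups.

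Aldh3a2, the fatty aldehyde dehydrogenase of the endoplasmic reticulum, showed the largest fall of the 10 genes. Aldh3a2 (ENSMUSG00000010025), which oxidises long-chain aldehydes from fatty alcohols, phytol and sphingolipids, had 140.0, 180.3, 268 and 214 CPM in Control mice and 43.4, 38.3 and 34.6 CPM in LPS mice. The Control mice varied, with mouse 3 highest, but even the lowest of them was far above the LPS mice. The level was 5.17-fold lower, or -2.37 in log2 units (SE 0.22, adjusted p = 5.10e-06, edgeR). With each mouse left out in turn this value ranged from -2.51 to -2.20. Of 9 genes listed for the supply of fatty aldehydes and fatty alcohols, 8 were tested. Of these 2 were lower, against 13% of all genes tested, and 6 did not pass. The 2 lower genes were Agmo, which cleaves alkylglycerols to fatty aldehydes, with a log2 fold change of -0.75, and Hsd17b6, a dehydrogenase of steroids and retinol, with -3.21. Phytanoyl-CoA hydroxylase (Phyh) gave 85.9% of the summed level of this list in Control and 87.5% in LPS mice and did not pass the test. Of 20 genes for other enzymes that remove reactive carbonyls, 18 were tested. Of these 10 were lower, against 13% of all genes tested, and 8 did not pass. Their summed level was 3547, 4187, 4958 and 4396 CPM in Control mice and 1004, 1009 and 991 CPM in LPS mice. The 3 with the lowest p-values were the glutathione transferase genes Gsta3 and Gsta4, with log2 fold changes of -3.15 and -5.06, and the aldo-keto reductase gene Akr1c6, with -3.20. Gsta3 gave 35.6% of the sum in Control and 17.1% in LPS mice.

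Aldh1l1 (ENSMUSG00000030088), the cytosolic 10-formyltetrahydrofolate dehydrogenase, which releases formyl groups as carbon dioxide, was abundant in both groups. It had 675, 895, 770.5 and 933 CPM in Control mice and 674, 1006 and 1031 CPM in LPS mice. LPS mouse 1 matched the lowest Control mouse, whereas LPS mice 2 and 3 were above the highest. The log2 fold change was 0.14 (95% confidence interval -0.26 to 0.55, adjusted p = 0.628, edgeR), and it was -0.0028 without scaling factors, so no direction is given. All 23 genes of folate and one-carbon metabolism in the list were tested. Against 13% and 13.3% of all genes tested, 10 of these were lower and 2 were higher. The counts were 5 and 1 with LPS mice 2 and 3 summed. Among the falls with the lowest p-values, the cytosolic serine hydroxymethyltransferase gene Shmt1 changed by -1.03 in log2 units (SE 0.13, adjusted p = 1.21e-04, edgeR), the sarcosine dehydrogenase gene Sardh by -1.03 and the glycine cleavage gene Gcsh by -0.74. The higher genes were Gldc, of the glycine cleavage system, with 0.65, and Mthfd1l, the mitochondrial formate-forming synthetase, with 3.92. Mthfd1l was scarce, with 4, 0, 1 and 3 counts in Control mice and 48, 33 and 23 counts in LPS mice. Gldc overlapped between the groups, and its adjusted p was 0.142 with LPS mice 2 and 3 summed and 0.0785, 0.1004, 0.136 and 0.156 without Control mouse 1 or 2 or LPS mouse 2 or 3. Without scaling factors it was 0.110.

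By compartment, 3 of the 7 cytosolic genes were lower and 1 was higher, 1 of the 2 mitochondrial genes was lower and 1 was higher, and the single gene of the endoplasmic reticulum was lower. Only 1 cytosolic gene was lower and none was higher with LPS mice 2 and 3 summed, while the other counts were the same. Over all genes tested, 13% were called lower and 13.3% higher without this summing. With so few genes in each compartment, these counts do not show a contrast between compartments. The summed level of the cytosolic genes was 4614 ± 354 CPM (SD, n = 4) in Control and 3176 ± 444 CPM (SD, n = 3) in LPS mice. That of the mitochondrial genes was 1408 ± 155 CPM and 741 ± 54.9 CPM, with Aldh2 giving 98.6% of it in Control and 93.6% in LPS mice. Neither sum overlapped between the groups, but for the cytosolic genes this rested on Adh1, which gave 34.9% of the sum in Control and 12.8% in LPS mice. Without Adh1 the cytosolic sum was 3004 ± 268 CPM (SD, n = 4) in Control and 2770 ± 488 CPM (SD, n = 3) in LPS mice, with overlap. Levels were then compared between genes per transcript length, as RPKM (CPM divided by length) over the principal transcript of the GENCODE M21 annotation. On this scale the cytosolic genes gave 85.3%, 85.6%, 82.7% and 84.1% of the summed RPKM in Control mice and 86.2%, 86.9% and 87.2% in LPS mice. The mitochondrial genes gave 12.9%, 12.4%, 14.4% and 13.4%, and 12.8%, 12.4% and 12.2%. The cytosolic share was slightly higher in every LPS mouse than in any Control mouse, while the mitochondrial shares overlapped between the groups although both sums were lower. The share of Aldh3a2 was 2.33 ± 0.518% (SD, n = 4) in Control and 0.791 ± 0.175% (SD, n = 3) in LPS mice.

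Adh1 had by far the highest level per length in Control mice and overlapped with Aldh1a1 in LPS mice. In Control mice the RPKM was 1079 ± 71.8 (SD, n = 4) for Adh1, 503 ± 68.2 for Aldh1a1, 359 ± 39.7 for Aldh2, 244 ± 11.8 for Adh5, 196 ± 28.3 for Aldh1l1 and 134 ± 5.14 for Aldh8a1. Each of these genes was above the next in all 4 mice, with ranges that did not overlap. Below them were Aldh1a7 with 91.6 ± 5.51 RPKM, Adh4 with 90.4 ± 21.0 RPKM, Aldh3a2 with 64.9 ± 17.5 RPKM and Aldh1b1 with 8.29 ± 2.47 RPKM. The ranges of Aldh1a7, Adh4 and Aldh3a2 overlapped between neighbours, and Aldh1b1 was lowest in all 4 mice. In LPS mice the RPKM was 337 ± 53.9 (SD, n = 3) for Aldh1a1, 272 ± 29.9 for Adh1, 217 ± 47.7 for Aldh1l1, 202 ± 18.8 for Adh5, 179 ± 11.5 for Aldh2, 157 ± 18.3 for Aldh8a1 and 150.5 ± 45.3 for Aldh1a7. Aldh1a1 was above Adh1 in 2 of 3 mice, and the neighbours from Aldh1l1 down to Aldh1a7 overlapped in range. Adh4 with 62.0 ± 2.01 RPKM, Aldh1b1 with 20.8 ± 4.55 RPKM and Aldh3a2 with 12.5 ± 1.42 RPKM followed, each apart from the next, so that Aldh1b1 stood above Aldh3a2. Of the summed RPKM, Adh1 held 39.4%, 38.2%, 39.3% and 39.0% in Control mice and 21.6%, 14.8% and 15.1% in LPS mice.

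**Figure D2:**
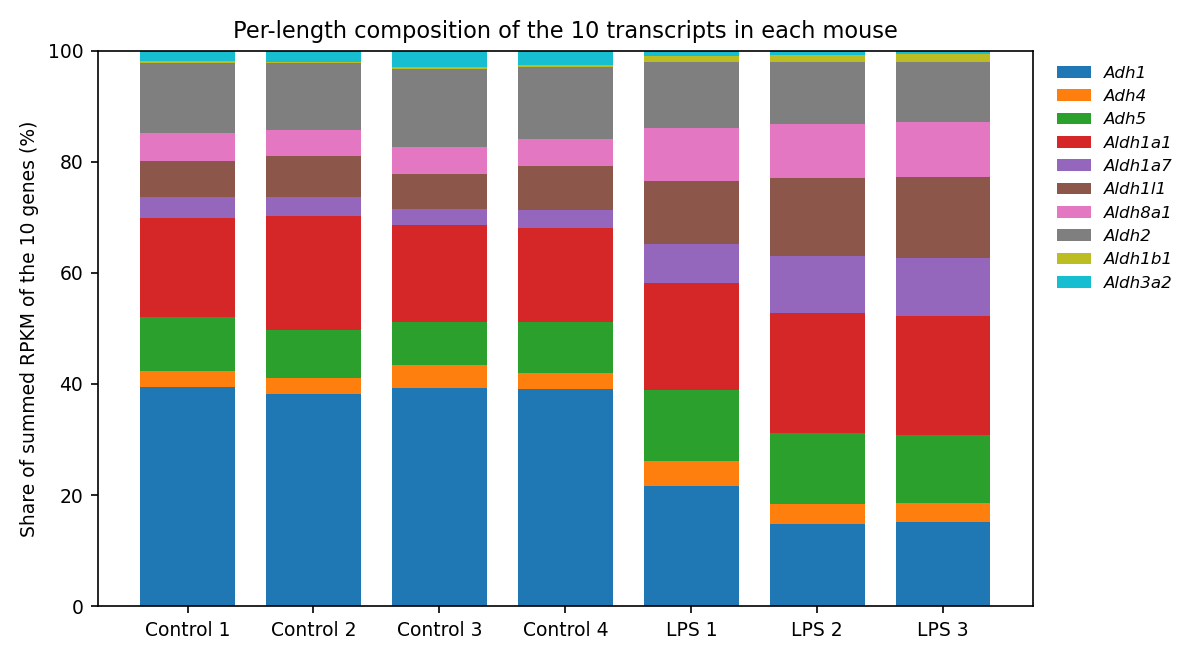
Share of each of the 10 transcripts in their summed RPKM (vertical axis, percent) in each mouse, with 1 stacked bar per mouse. The Adh1 share is 38.2% to 39.4% in Control mice and 14.8% to 21.6% in LPS mice, while the Aldh1a7 share is 2.96% to 3.81% and 6.93% to 10.4%.

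The remaining alcohol and aldehyde dehydrogenase genes of the mouse were looked at as a group. Of 18 such genes 10 were tested. Of these 5 were lower, against 13% of all genes tested, and 5 did not pass. The median log2 fold change of the 10 was -0.32. The 5 that fell, with a substrate or pathway of each enzyme, were Aldh7a1 (lysine, log2 fold change -0.82), Aldh5a1 (succinate semialdehyde, -0.73), Aldh9a1 (aminobutyraldehyde, -0.69), Aldh4a1 (proline, -0.67) and Aldh6a1 (valine, -0.57). In each of them every LPS mouse was below every Control mouse, as in 17.4% of all genes tested. A gene called lower is likely to show such a gap, so it adds no support to the calls. The call of Aldh6a1 was lost without LPS mouse 1, 2 or 3 (log2 fold changes -0.54, -0.57 and -0.60, adjusted p = 0.0525, 0.0778 and 0.0609, edgeR) and with LPS mice 2 and 3 summed (-0.58, adjusted p = 0.0730). Those that did not pass were Adh7 (log2 fold change 0.39), Adhfe1 (-0.02), Aldh3b1 (0.60), Aldh16a1 (-0.07) and Aldh18a1 (0.88). Adh7 passed without Control mouse 3, with a log2 fold change of 0.56 (adjusted p = 0.0313, edgeR). Adhfe1 and Aldh16a1 changed sign when single mice were left out, so no direction is given for them. Among the 8 genes too scarce to test, Aldh3a1, a cytosolic enzyme for aromatic and lipid aldehydes, was singled out after its values were seen. It had 0 counts in all 4 Control mice and 19, 13 and 5 counts in LPS mice 1 to 3. The LPS mean of 0.675 CPM was 3.70-fold the mean Control floor of 0.183 CPM, which is 3 counts per library. This holds for the mean only, since LPS mouse 3 stood at 0.311 CPM.

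Markers of liver cell types did not share a direction. Over all genes tested, 13% were lower and 13.3% higher. Of 10 pericentral hepatocyte markers, 6 were lower and 4 did not pass, with a median log2 fold change of -1.43. Their summed level was 7320, 10675, 10234 and 8809 CPM in Control mice and 6180, 6415 and 6494 CPM in LPS mice, and Cyp2e1, which did not pass, gave 72.1% of it in Control and 89.4% in LPS mice. Without Cyp2e1 the sum was 2587 ± 106 CPM (SD, n = 4) in Control and 677 ± 6.28 CPM (SD, n = 3) in LPS mice. Periportal hepatocyte markers went mostly the other way. Of 9 such markers, 1 was lower, 4 were higher and 4 did not pass, with a median log2 fold change of 0.62. With LPS mice 2 and 3 summed 1 was lower and 3 were higher. Of 12 general hepatocyte markers listed, 11 were found in the count table and tested. Of these 3 were lower, 3 were higher and 5 did not pass, with a median log2 fold change of 0.14. With LPS mice 2 and 3 summed 1 was lower and 2 were higher. Their sum was 67149, 65823, 90294 and 78361 CPM in Control mice and 46481, 51917 and 52344 CPM in LPS mice, with albumin (Alb) giving 62.3% in Control and 49.1% in LPS mice. Without Alb it was 28429 ± 597 CPM (SD, n = 4) in Control and 25583 ± 3248 CPM (SD, n = 3) in LPS mice, so the fall of the sum lay mostly in Alb. None of the markers in these lists was at 0 in every library. The lists given here do not cover every cell type of the liver, so they do not show how its cell content changed. The part of cell content in the falls of Adh1, Aldh2 and Aldh3a2 and in the rise of Aldh1b1 was not tested.

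Of 8 neutrophil markers 5 were tested and all 5 were higher, with a summed level of 5.09, 4.54, 1.89 and 2.85 CPM in Control mice and 191, 134 and 133 CPM in LPS mice. S100a9 gave 32.7% of that sum in Control and 54.3% in LPS mice. Ly6g and Mpo had 0 counts in all Control mice and, in LPS mice 1 to 3, 7, 0 and 1 counts and 0, 1 and 0 counts. Of 8 Kupffer cell and macrophage markers 1 was lower and 3 were higher, and the sum was 105, 162, 145 and 101 CPM in Control mice and 609.9, 111 and 111 CPM in LPS mice 1 to 3. Marco gave 2.87% of it in Control and 65.1% in LPS mice. Without Marco the sum was 103, 156, 141 and 98.2 CPM in Control mice and 200.2, 44.5 and 45.4 CPM in LPS mice. On that sum LPS mouse 1 was above all Control mice, and LPS mice 2 and 3 were below them. LPS mouse 1 thus stood apart in macrophage markers. It was the lowest LPS mouse in 7 of the 10 dehydrogenases, against 39.4% of all genes tested, and since LPS mice 2 and 3 were so alike these 7 genes do not count as separate observations. The sum of 10 stellate cell markers, of which Dcn gave 44.9% in Control and 48.3% in LPS mice, was 490.1, 347, 218 and 355 CPM in Control mice and 344, 273 and 263 CPM in LPS mice, with 3 genes lower and 1 higher. For 6 endothelial markers, of which Stab2 gave 24.8% in Control and 19.1% in LPS mice, the sum was 96.4, 125, 78.9 and 108 CPM in Control and 134, 69.8 and 66.9 CPM in LPS mice, with 2 lower and 2 higher, or 1 and 2 with LPS mice 2 and 3 summed. For 6 cholangiocyte markers, of which Spp1 gave 87.9% in Control and 82.9% in LPS mice, it was 264, 109, 72.2 and 117 CPM in Control and 138, 165 and 159 CPM in LPS mice, with 1 gene higher. The part of any of these cells in the results on the 10 genes was not tested.

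The genes whose levels followed Adh1 most closely were sought among 7071 other genes averaging 10 CPM or more. By Pearson's r of log2 CPM over the 7 mice, they were Glul, Mmp15, Aox3, Gsto1 and Slco1a1, with r between 0.9985 and 0.9987 and log2 fold changes of -2.95, -2.29, -3.61, -1.74 and -4.29. Glul encodes glutamine synthetase of pericentral hepatocytes, Gsto1 a glutathione transferase and Slco1a1 an organic anion transporter. These 7 mice form 2 separate groups, so r mainly reflects the gap between them, and 360 genes had an r above 0.95.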

How the data were processed

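Liver RNA of 4 Control and 3 LPS mice was measured by strand-specific sequencing of polyadenylated RNA. What the authors deposited are counts of reads on each of 56691 genes, not normalized. The submitters' processing notes name cutadapt 1.9.1, HISAT2 2.2.1, HTSeq 0.6.1, DESeq2 1.34.0 and the build GRCm39. The annotation release and the settings for strand and for reads that fit several genes were not given in the sources used here. Groups came from the treatment labels.

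In R 4.3.3, genes were filtered with filterByExpr of edgeR 4.0.16, which left 13683 genes, all 10 dehydrogenases among them. With TMM scaling, the groups were compared by edgeR's quasi-likelihood test with Benjamini-Hochberg adjustment over all genes tested and treatment as the only term. Calls were made at an adjusted p below 0.05. The methods of the study name DESeq2, which was run as an alternative (version 1.42.0). CPM values are counts relative to the scaled library, and RPKM divides them by transcript length. Ratios of 2 genes within a library were compared by a two-sided exact permutation test over 35 arrangements of the 7 mice. The procedure was tested on simulated data, of which no result is given here.

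Besides the 10 genes, the genes named were Cyp2e1, Cat and Acss2, every tested gene among the other alcohol and aldehyde dehydrogenases, for each pathway and direction the 3 calls of smallest p, the 5 genes most correlated with Adh1 (the dehydrogenase with the highest mean CPM over all 7 mice, though not in LPS mice alone), and 5 acute phase genes. Marker lists add their gene of highest mean CPM over all 7 mice and markers at 0 counts in Control mice, and Phyh, Ttr, Adh6-ps1 and Aldh3a1 were named after values were seen. The genes and lists were chosen with earlier results of these data known. Transcript lengths and shared windows came from GENCODE M21 and promoters from RefSeq, both on GRCm38, so no coordinates are given for the counted genes. Other alternatives were RLE factors, no scaling factors, leaving out mitochondrially encoded genes or genes with over 1% of a library, a filter of at least 10 counts in every sample or none, an adjusted p below 0.01, an absolute log2 fold change above 1, the replicate number as a block, LPS mice 2 and 3 summed, each mouse left out in turn and, for ratios, 1 count added to each gene. Mice treated with sulforaphane were not analysed here. The results of 2 marker lists are not reported here.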

Additional observations from a re-analysis of the deposited data

Results flagged for a closer look

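In Control mice, the gap between the most extreme mouse and its nearest neighbour, divided by the range of the 4 mice, was compared with the critical value of Dixon's test for 59 sets of values, and 4 passed it. Levels were compared as log2 CPM. Chance flags about 1 in 20 groups, and the LPS group of 3 mice was not tested. Aldh5a1 was low in Control mouse 1, at 46.5 CPM against 60.1, 59.3 and 59.9 CPM in the others, with a gap of 0.947 of the log2 range. Aldh18a1 was low in Control mouse 3, at 0.489 CPM against 1.63, 1.83 and 2.08 CPM, with a gap of 0.830 of the log2 range. On the CPM scale the gap was 0.941 for Aldh5a1, which passed as well, and 0.715 for Aldh18a1, which did not. The log2 ratio of Aldh1b1 to Aldh2 was low in Control mouse 2, at -6.97 against -5.96, -6.10 and -5.94, with a gap of 0.839. The log2 ratio of Adh4 to Adh1 was high in Control mouse 3, at -3.43 against -3.92, -3.87 and -3.92, with a gap of 0.890. In both ratios every LPS mouse was above all 4 Control mice, the distant mouse included.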

How the results depend on the processing

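Over the alternatives, 144 of 160 refitted log2 fold changes of the 10 genes kept direction and call, 15 lost the call and 1 changed sign, that of Aldh1l1, at -0.0028 without scaling factors. Of 5 genes lower and 2 higher, 3 and 1 were called with LPS mice 2 and 3 summed, at an adjusted p below 0.01, or with an absolute log2 fold change above 1 as well, and 3 to 5 and 1 to 2 with each mouse left out. Over all genes, the 1773 lower and 1825 higher became 993 and 1091 at an adjusted p below 0.01 and 1000 and 1068 with the fold change threshold, and ranged from 1146 to 1868 and from 1290 to 1906 with each mouse left out. With LPS mice 2 and 3 summed they were 1195 and 1348, and in the lists the lower and higher genes were then 11 and 2 for the retinoid pathway, 3 and 4 for the kynurenine route, 9 and 0 for reactive carbonyls, 5 and 1 for folate and 4 and 0 for the other family members, a count chosen after the data were seen. DESeq2 called 2019 lower and 2032 higher, of which 1763 and 1817 were shared, and changed no call among the 10 genes. The exact test of ratios has fewer arrangements with fewer samples. Adjusted p was then 0.0667 to 0.12, while the difference ranged, with each mouse left out, from 2.12 to 2.50 for Aldh1b1 to Aldh2, 1.17 to 1.39 for Aldh1a7 to Aldh1a1, 1.41 to 1.59 for Adh4 to Adh1, 1.61 to 1.88 for Adh5 to Adh1 and 0.91 to 1.13 for Aldh2 to Adh1. With LPS mice 2 and 3 summed these were 2.29, 1.18, 1.43, 1.63 and 0.92. Among 698 values of 44 other named genes, 670 kept direction and call, 23 lost the call, 1 gained it and 4 changed sign: Adhfe1, at 0.0038 without Control mouse 3 and 0.084 without LPS mouse 1 (range -0.091 to 0.084 with each mouse left out), and Aldh16a1, at 0.0091 without Control mouse 2 and 0.0092 without LPS mouse 3 (range -0.15 to 0.0092). Except where fewer samples show it, the cause was not tested. Same-numbered mice of the 2 groups had deviations correlated at 0.18, -0.06 and 0.07. The value of 0.18 was the highest of any Control mouse with any LPS mouse. LPS mice 2 and 3 were each more correlated with a Control mouse of another number. Such weak values cannot show whether the numbers pair the mice. With the number as a replicate block, 1587 genes were lower and 1647 higher, and of the 10 genes only Adh4 lost its call (-0.56, adjusted p = 0.0516, edgeR). Depth limits what can be said of the 8 untested family members, since 3 counts equal at least 0.138 CPM.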
